A study of Mus musculus with 10 samples.

Results

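Testes of cadmium-treated mice were compared with testes of control mice, using 4 of the 10 RNA libraries of the series, namely those whose labels name testes and either cadmium or control. All mice were of the C57BL/6 strain by the labels, given as C57BL/6J for the control mice in the study's methods, and 3 to 5 months old. Cadmium mice were injected once into the peritoneum with CdCl2 at 3 mg per kg of body weight, and control mice received saline. Both were killed 35 days later, with 50 mice in each arm by the labels. The study's methods, which describe no cadmium mice, give more mice and a younger range of ages. Each group holds 2 libraries of total RNA depleted of ribosomal RNA and made from 10 mg of testis tissue. The study's methods place the control testes of several mice together in each of the replicates. The labels do not say how many cadmium mice went into a library, nor whether libraries of the same number share a day or a batch, so the p-values below measure only the spread between these libraries. The other 6 libraries are of sperm.

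The seminiferous tubules of the testis hold germ cells at every stage, from spermatogonia through meiotic spermatocytes to round and elongating spermatids, beside the Sertoli cells that nurse them and the peritubular myoid cells that wrap them. Leydig cells, blood vessels and macrophages lie between the tubules. Cadmium is a toxic metal that binds the metallothioneins, induces them and heme oxygenase in many tissues, and is known to damage testicular vessels, the junctions between Sertoli cells and the germ cells themselves. The interval from the injection to killing is about the time that a mouse spermatogonium takes to become a sperm.

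Expression was deposited for each transcript as an estimated (expected) count and as FPKM, the fragments scaled to transcript length and to the fragments mapped. Both were summed by gene. Expected counts totalled 2866856 and 2606086 in the control libraries 1 and 2, and 2845417 and 2709568 in the cadmium libraries 1 and 2. A share of 3 counts, the least that is taken here as detected, was between 0.000105% and 0.000115% of a library, and covers counting error only. Known lncRNAs of the NONCODE collection took 78.0 to 78.6% of the counts and known mRNAs 11.3 to 12.1%, so a coding gene rests on far fewer counts than the totals imply. In all, 65643 genes were above 0 in the 4 libraries, of 69543 in the series, and 26721 reached 1 FPKM in at least 2 of the 4 and were tested. These comprise 5110 known mRNA genes, 17314 known lncRNA genes, 723 predicted mRNA genes and 3574 predicted lncRNA genes.

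The libraries stood apart by their number more than by treatment. The median absolute difference over the tested genes was 0.35 on the log2 scale between control 1 and cadmium 1, and 0.42 between control 2 and cadmium 2. It was 0.78 between the 2 control libraries and 0.67 between the 2 cadmium libraries. A difference of over 2-fold was seen for 15.7% and 22.8% of the genes in the pairs of one number, against 36.8% and 32.7% within the control and cadmium groups. Even the closest pair differed by more than sampling noise, with a chi-square of 2.44 per degree of freedom, so no library was counted out as a copy of another. Hsp90aa1, a cytosolic chaperone, shows the pattern, at 106 and 406 counts in control 1 and 2 and 111 and 351 in cadmium 1 and 2. Ldhc, the lactate dehydrogenase of spermatocytes, was at 43 and 104 counts in control and 41 and 119 in cadmium. Il1a, which encodes a cytokine made in the tubules, ran the other way, at 89 and 24 counts in control and 72 and 42 in cadmium. In all 3 genes the groups overlap while the numbers do not.

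**Figure D1:**
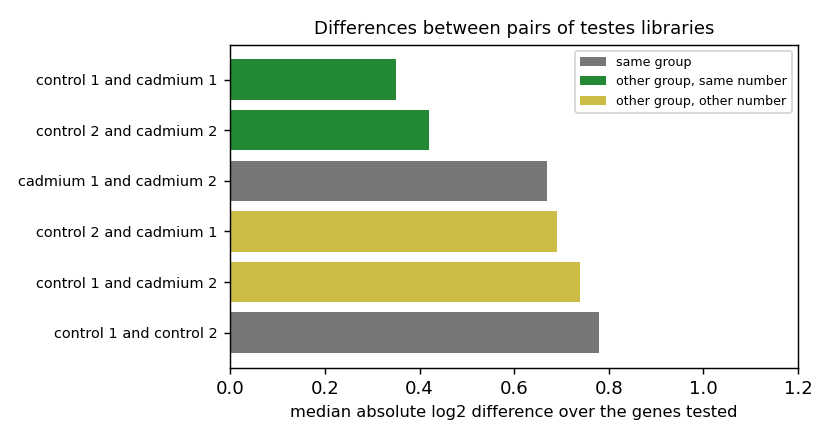
Bars give, for each pair of testes libraries, the median absolute log2 difference over the 26721 tested genes. The green bars, pairs of the same number from different groups, are at 0.35 and 0.42, and the other pairs run from 0.67 to 0.78.

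The labelled tissue was checked against its markers. Summed FPKM in the 4 libraries was 639 to 734 for genes of elongating spermatids and 13.5 to 19.2 for meiosis genes, beside 22.2 to 37.0 for Leydig cell, 26.1 to 75.5 for Sertoli cell and 1.02 to 1.67 for endothelial genes. Protamine 1 (Prm1) was between 118 and 136 FPKM in all 4 libraries. Of the defining Sertoli genes, Sox9 had at most 1 count in a library, and Wt1 at most 8. The vessel genes Pecam1 and Cdh5 had no row in the tables used here for these libraries. The steroid enzyme gene Cyp11a1 had 4 counts in control 2 and 0 in the other libraries. Somatic genes were thus unevenly measured. Star, of the Leydig cells, had 106 to 168 counts, and Dhh, of the Sertoli cells, 93 to 114. The junction gene Cldn3 had 1244 to 1679 counts, but also 852 to 2162 in control sperm and 4119 and 3865 in cadmium sperm. The sperm libraries were shallower, so Cldn3 does not measure Sertoli cells alone here. In such bulk tissue, fewer cells of a type and less RNA per cell cannot be told apart.

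Cadmium and control testes differed in 4 genes, which is 0.015% of the genes tested. A gene was called at a Benjamini-Hochberg adjusted p under 0.05 in edgeR's quasi-likelihood test and a change of over 2-fold. One coding gene was lower in cadmium testes (0.00374% of all genes, and 0.0196% of the known mRNA genes tested were called), and 3 lncRNA genes were higher (0.0112%). All 4 were listed at 0 in both libraries of one group, so their changes are given as bounds, against a floor of 3 counts per library.

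Eef1d encodes a subunit of the complex that recharges the translation elongation factor that brings aminoacyl-tRNA to the ribosome. It lies on chromosome 15 at 75894796 to 75909784 in the GRCm38.p6 annotation of RefSeq. Control testes had 64 and 62 counts, or 7.91 and 8.45 FPKM, and both cadmium testes were listed at 0. The groups do not overlap, the level was at least 20.4-fold lower in cadmium testes, and the adjusted p in edgeR was 0.0063. All of these counts were assigned to 1 of the 4 transcripts listed for the gene, the longest of them at 2855 bases. The others were at 0 in all 4 testes libraries. The annotation holds 19 transcripts of Eef1d, so the change is one of 1 listed transcript and may not stand for the whole gene. In sperm the gene had at most 1.01 counts in a control library and 2.30 in a cadmium library.

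The predicted lncRNA gene LXLOC_087086 was at 0 in both control testes and at 72.3 and 80.4 counts in the cadmium testes, at least 26.2-fold higher, with an adjusted p of 0.0063 in edgeR. It was also at 0 in all 4 control sperm libraries and at 228 and 78.9 counts in the cadmium sperm libraries. Across the series, 43 of 69543 genes were at 0 in every control library of either tissue and above 0 in every cadmium library, and 0 genes showed the reverse. The 2 counts are not alike, since the series holds more control than cadmium libraries, so the reverse needed values above 0 in more libraries. The control sperm libraries were the shallowest, with totals of 366455 to 1058017 counts against 1155491 and 1254477 in cadmium sperm, and the part of depth in that count was not tested. LXLOC_035013, another predicted lncRNA gene, was at 0 and 0 counts in control testes against 51 and 69 in cadmium testes, at least 21-fold higher with the same adjusted p. NONMMUG083489.1, a known lncRNA gene, was at 0 and 0 against 38.6 and 36.4 counts, at least 12.8-fold higher, with an adjusted p of 0.0211 in edgeR. Neither of the latter 2 separated the sperm libraries by treatment. LXLOC_035013 had 0 to 9 counts in control sperm and 4.69 and 4 in cadmium sperm. No coordinates or gene neighbours of the predicted and NONCODE genes were analysed here, so whether any of them overlaps a coding gene was not tested.

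These calls depended on the scaling and the test. DESeq2 made 4 calls, while edgeR with library size alone made 0, as did limma on log2(FPKM + 1) and edgeR on transcripts or on known mRNA genes alone, although 170, 496, 345 and 32 features there had an unadjusted p under 0.05. Leaving out control 1, control 2, cadmium 1 or cadmium 2 gave 41, 42, 21 and 18 calls, in each case including the same 4 genes.

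The genes next in order of p were also listed at 0 in a whole group, without passing the threshold. Eif4g3, a scaffold of translation initiation (chromosome 4, 137991779 to 138207086, RefSeq GRCm38.p6), had 29 and 23 counts in the controls and 0 in both cadmium testes, with an adjusted p of 0.0967 in edgeR. Pphln1, which encodes periphilin, a partner of a silencing complex (chromosome 15, 93398345 to 93491913), was at 0 in both control testes. It had 22.1 and 21.7 counts in cadmium testes, with an adjusted p of 0.108 in edgeR. Each had 1 transcript listed, of 56 for Eif4g3 and 24 for Pphln1 in that annotation, so neither may stand for the whole gene. The lncRNA genes LXLOC_069440 and NONMMUG014061.2 had 18.1 and 39.5, and 29.9 and 13 counts in cadmium testes and 0 in control testes. LXLOC_034007 and LXLOC_033573 had 34.8 and 12, and 22 and 16 counts in the controls and 0 in cadmium testes. Their adjusted p lay between 0.0967 and 0.164 in edgeR. Genes at 0 in both libraries of one group and at 3 counts or more in both of the other were about as many in either direction, at 59 with cadmium above 0 and 56 with control above 0. At 10 counts or more they were 11 and 4.

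**Figure D2:**
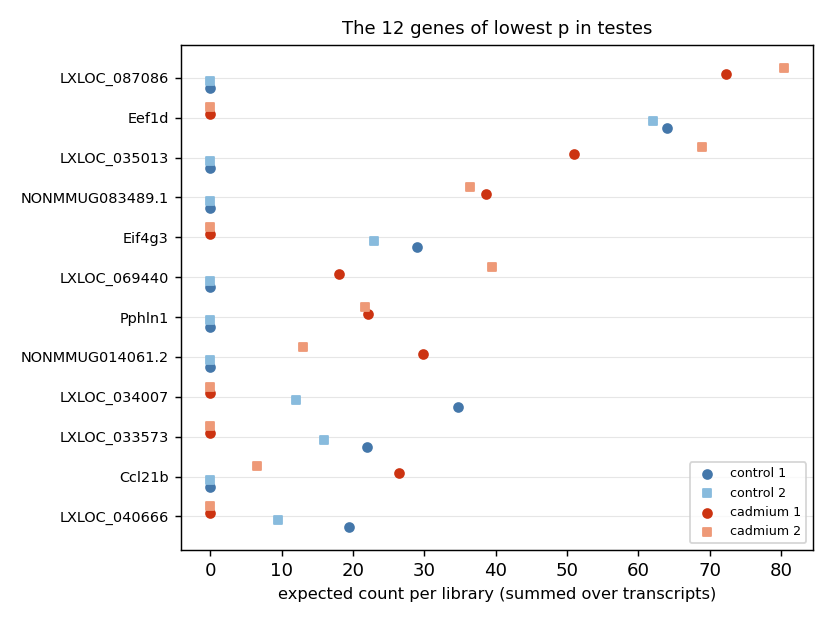
Expected counts per library (horizontal axis, linear) of the 12 genes of lowest p, with the lowest p at the top. Each gene is at 0 in both libraries of one group, and the 4 uppermost genes are those called.

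Among all tested genes, 215 (0.805%) had an unadjusted p under 0.05, and 31 of these were known mRNA genes, or 0.607% of the known mRNA genes tested. On the test's scale, that is counts scaled by library size and TMM, the 2 groups did not overlap in 9.47% of genes with cadmium higher and in 9.09% with cadmium lower. For known mRNA genes these shares were 9.08% and 8.40%. The median log2 fold change was 0.02 both over all genes and over known mRNA genes. The genes of the next 2 paragraphs were chosen after their values were seen, and Eef1d was the only known mRNA gene called.

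Of the known mRNA genes with an unadjusted p under 0.05 and counts in both groups, Tubb6, a beta tubulin, had 33.1 and 38.2 counts in the controls and 96 and 85.1 in cadmium testes. Its log2 fold change was 1.36 ± 0.51 (SE worked back from the test), and its adjusted p was 1.0 in edgeR. Gykl1, a glycerol kinase-like gene expressed in the testis, had 36 and 26 counts in the controls and 5.01 and 7.89 in cadmium testes, a log2 fold change of -2.14 ± 0.66. Coro1c, an actin-binding coronin, had 43 and 23 counts against 7 and 12. In these 3 genes both cadmium libraries lay on one side of both control libraries, and the adjusted p of each was 1.0 in edgeR. Psap, the precursor of the saposins of the lysosome, had 19 and 12 counts in the controls and 5 and 3 in cadmium testes. Cops5, the catalytic subunit of the COP9 signalosome, had 1 and 1 counts against 10.0 and 7, and Mark3, a microtubule-affinity kinase, 0 and 2.27 against 12.6 and 11.3. These rest on fewer than 20 counts per library.

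The chemokine gene Ccl21b, whose product guides lymphocytes and dendritic cells to lymphoid tissue, was at 0 in both control testes and at 26.5 and 6.52 counts in cadmium testes, with an adjusted p of 0.474 in edgeR. Its near-identical copies share reads with it and the counting could split them. Ccl21a had 0 and 2.48 counts in the controls and 20.1 and 2.48 in cadmium testes, whereas Ccl21c had 10.5 and 1.88 against 0.62 and 0. All 3 values are therefore uncertain one by one.

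The functions and cell types of the testis were described with 31 gene lists, together 757 genes, of which 697 had a row in at least 1 library of the series and 330 were tested. edgeR called 0 of the 330, and DESeq2 called 0. An unadjusted p under 0.05 was found for 2 of them in edgeR, Odf1 and Defb19, and for 2 in DESeq2. The groups did not overlap in 26 with cadmium higher (7.88%) and in 31 with cadmium lower (9.39%), shares near those over all genes, and the median log2 fold change was 0.02, as over all genes. The lowest adjusted p of any tested list member was 1.0 in edgeR, which holds for every tested member named in the paragraphs that follow. Members that did not pass the filter have no p. Errors after ± are standard errors of the log2 fold change worked back from edgeR's test, with n = 2 libraries per group.

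**Figure D3:**
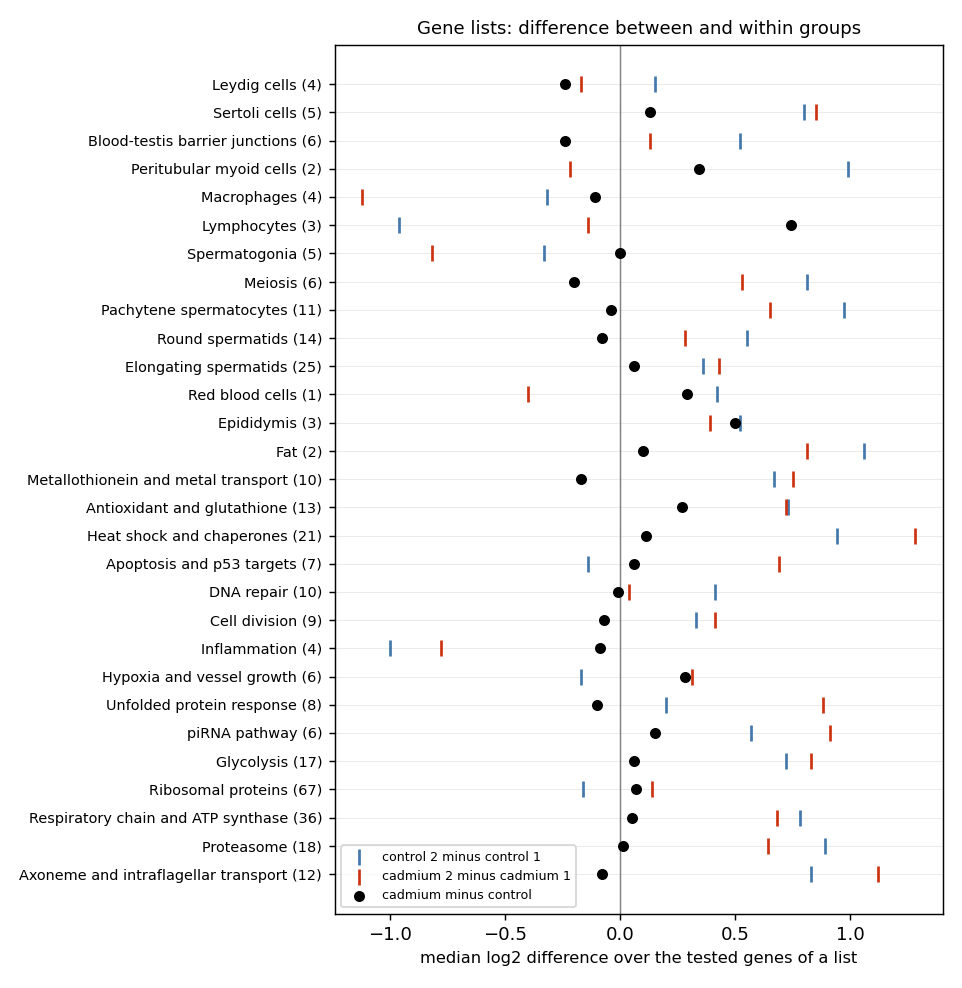
Each row is a gene list with its number of tested genes in brackets, and the horizontal axis is the median log2 difference. Black points (cadmium minus control) lie between -0.24 and 0.74, and the coloured ticks (library 2 minus library 1 within each group) between -1.12 and 1.28.

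Spermatogonia, the stem and dividing germ cells at the base of the tubule, were read from 22 genes, of which 5 were tested. Their median log2 fold change was 0.00. Gfra1, the receptor subunit through which stem spermatogonia sense GDNF, was at 19.2 and 26.9 FPKM in the controls and 21.7 and 26.9 in cadmium testes (0.13 ± 0.50). Dmrtb1, which times the entry into meiosis, was at 11.5 and 34.4 FPKM against 13.4 and 31, so that the numbers separate and the groups do not. The RNA-binding repressors of differentiation gave low and opposite values, with Nanos2 at 6 and 2 counts against 14 and 4 and Nanos3 at 8.56 and 4 against 3.50 and 0. The markers Kit and Zbtb16 had at most 1 count in any library, which is below the floor.

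Meiosis genes encode the synaptonemal complex, the cohesins and the recombination machinery. Of 26 listed, 6 were tested, with a median log2 fold change of -0.20. On the test's scale the groups were apart in 1 with cadmium lower (16.7%, beside 8.40% over known mRNA genes). That gene was Sycp1, the transverse filament of the synaptonemal complex, at 11 and 13 counts in the controls and 7 and 7 in cadmium testes (-0.74 ± 0.72). Sycp3, its lateral element, had 3 and 13 counts against 3 and 8. Meioc, which stabilises the meiotic programme and had the most counts of the tested members, had 42 and 43 counts against 40.0 and 38. The error of the Sycp1 change is as large as the change itself.

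Pachytene spermatocyte genes gave a median log2 fold change of -0.04 over 11 tested of 16. Ovol1, a transcription factor of the pachytene stage, was at 67.3 and 64.2 FPKM in the controls and 60.1 and 48.5 in cadmium testes (-0.22 ± 0.47), and the groups did not overlap. Ldhc was at 11.8 and 31.6 FPKM against 11.4 and 34.8, and Hspa2, the chaperone of the synaptonemal complex, at 6.83 and 10.2 against 5.14 and 9.96. In both, library 2 was higher than library 1 in each group. Over the list, the median difference of library 2 from library 1 was 0.97 in control and 0.65 in cadmium testes, against -0.04 between the groups.

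Round spermatids build the acrosome and start the flagellum. All 24 listed genes were above 0 in testes, 14 were tested, and their median log2 fold change was -0.08, with the groups apart on the test's scale in 2 with cadmium lower (14.3%, beside 8.40% over known mRNA genes). One was Tssk1, a testis-specific kinase that may share reads with its copy Tssk2, at 62.6 and 41.8 FPKM against 51.9 and 39.9 (-0.10 ± 0.46). The other was Zpbp2, a protein of the acrosome that binds the egg's coat, at 5 and 4 counts against 2 and 2. Catsper2, a subunit of the sperm calcium channel, had 6 and 12 counts against 15 and 12.

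Elongating spermatids, which replace histones with transition proteins and then protamines and assemble the tail, formed the best measured stage, with 25 of 26 genes tested and a median log2 fold change of 0.06. Prm1 was at 122 and 128 FPKM in the controls and 118 and 136 in cadmium testes (0.10 ± 0.48). Prm2 was at 281 and 147 FPKM against 248 and 169 (0.06 ± 0.47), with library 1 higher in each group. Neither protamine separated the groups. The transition protein Tnp1 was at 90.3 and 88.1 FPKM against 107 and 140 (0.56 ± 0.49), and Tnp2 at 65.9 and 97.7 against 71.4 and 121 (0.31 ± 0.53). Both Tnp1 FPKM values of cadmium testes lay above both control values, but the difference was about the size of its error, and on the scale used for the test the groups overlapped. The groups were apart in 8 genes of this list, with cadmium higher in 2 (8%) and lower in 6 (24%), beside 9.08% and 8.40% over known mRNA genes.

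Odf1, which encodes the main protein of the outer dense fibres that stiffen the sperm tail, had 6.43 and 6.55 counts, or 2.12 and 2.38 FPKM, in control testes and 0 in both cadmium testes. It was at least 2.14-fold lower by the floor of 3 counts per library, its unadjusted p was 0.00459 in edgeR and its adjusted p 1.0. Odf2, another protein of those fibres, had 236 and 338 counts against 180 and 280, and its groups overlapped (-0.28 ± 0.53). Odf3 had 4 and 5 counts against 2 and 2. Tail genes were thus mixed in how well they were measured, since Odf1 and Odf3 rest on a few counts. Among genes of the tail sheath, Akap4 had 23 and 29 counts in the controls and 23 and 39 in cadmium testes. Txndc2, a sperm thioredoxin, had 73 and 56 against 80.0 and 57, and H1fnt, a linker histone of condensing spermatids, 62 and 49 against 48 and 41 (-0.26 ± 0.49).

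**Figure D4:**
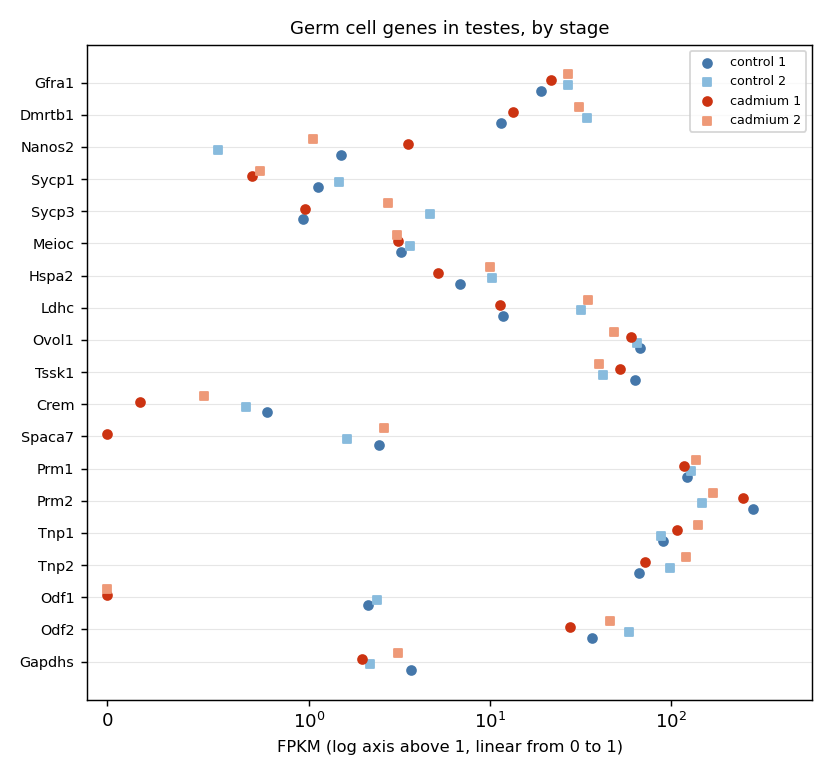
FPKM per library (horizontal axis, logarithmic above 1 and linear below) of germ cell genes, ordered from spermatogonia at the top to elongating spermatids at the bottom. Prm1 lies between 118 and 136 in all 4 libraries, and Odf1 is at 0 in both cadmium testes.

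The axoneme and the transport along it were read from 36 genes, of which 12 were tested, with a median log2 fold change of -0.08. The outer arm dynein heavy chain Dnah8 had 114 and 112 counts in the controls and 90.0 and 93 in cadmium testes (-0.26 ± 0.48), and Rsph1, a radial spoke protein, 31 and 52 against 25 and 55. Ift43, of the retrograde transport complex, was the only one whose groups did not overlap on the test's scale, at 3 and 7 counts against 0 and 2. It makes up 8.33% of the tested genes, with cadmium lower, beside 8.40% over known mRNA genes. The piRNA pathway, which silences transposons in germ cells, gave a median of 0.15 over 6 tested of 20. Tdrd6, a scaffold of the chromatoid body, had 105 and 111 counts against 109 and 114 and Mael 20.0 and 36 against 15 and 34.

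Leydig cell genes gave a median log2 fold change of -0.24 over 4 tested of 15. Star, which carries cholesterol into the mitochondrion for steroid synthesis, was at 14.7 and 14.3 FPKM in the controls and 14.6 and 9.84 in cadmium testes (-0.21 ± 0.46). Cadmium 2 alone was low by FPKM, and on the test's scale the groups overlapped. Insl3, the hormone of testicular descent, had 8 and 3 counts against 8.79 and 5.90. Fdx1, the electron donor of the steroid enzymes, had 30.0 and 22 counts against 25 and 17, and Tspo, a cholesterol-binding protein of the outer membrane, 5 and 4 against 4 and 1. Nr5a1, which drives the steroid genes, did not pass the filter and had 21 and 7 counts against 6 and 2. Summed over the list, FPKM was 37 and 31.3 in control and 32.8 and 22.2 in cadmium testes, with 6 of the 15 genes under 3 counts in every library.

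Sertoli cells were read from 24 genes, of which 5 were tested and 10 were under 3 counts in every library. Dhh, the ligand by which they signal to Leydig and myoid cells, was at 13.9 and 18.3 FPKM in the controls and 15.8 and 18.1 in cadmium testes (0.13 ± 0.49). Clu, a secreted chaperone, had 10.0 and 10.0 counts against 6 and 9. The defensin Defb19 was at 1 and 3 counts in control testes, 1 in cadmium 1 and 45 in cadmium 2, with a log2 fold change of 3.64 ± 1.24, an unadjusted p of 0.00928 and an adjusted p of 1.0 in edgeR. That value rests on cadmium 2 alone, and the groups overlap.

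Some genes of the epididymis, the duct beside the testis, were high in the same library. Adam7 had 1 and 11 counts in the controls and 0 and 33 in cadmium testes. Lcn5 and Rnase9, both secreted by the epididymis, had 7 and 11 counts in cadmium 2 and 0 in the other 3 libraries. Cst8 and Adam28 did not follow that library. Cst8 had 9 and 9 counts in the controls and 4 and 4 in cadmium testes, and Adam28 had 16.3 and 8.1 against 17.6 and 14.4. The other 7 of the list had at most 4 counts in any library, too few to place them one by one. The 12 epididymis genes together came to 26.3 and 38.1 counts in the controls and 23.6 and 82.5 in cadmium testes. That sum was highest in cadmium 2 and next in control 2. Gpx5, a defining gene, had at most 3 counts. The part of these genes in the other values of cadmium 2 was not tested.

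Junctions of the blood-testis barrier, by which Sertoli cells seal off the meiotic germ cells, gave a median log2 fold change of -0.24 over 6 tested of 16. Cldn3, a claudin of the barrier, was at 391 and 530 FPKM in the controls and 359 and 441 in cadmium testes (-0.15 ± 0.54), and its groups overlapped. The shallower sperm libraries held 852 to 4119 counts of Cldn3, so its level is not particular to the barrier. On the test's scale the groups were apart in Ctnnb1, the beta-catenin gene, at 14 and 13 counts against 11 and 6, and in Cxadr, an adhesion receptor, at 12.6 and 9.54 against 12 and 5.77. These are 2 of the 6 tested, both with cadmium lower (33.3%, beside 8.40% over known mRNA genes). The nectin gene listed as Pvrl2 had 17 and 18 counts against 7 and 13. Cldn11, the main Sertoli claudin, had 2 and 6 counts in the controls and 0 in both cadmium testes and did not pass the filter.

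Of the other somatic cells, peritubular myoid cells gave 2 tested genes, with Tagln, an actin cross-linker of smooth muscle, at 56 and 50.0 counts in the controls and 66 and 45 in cadmium testes, and Acta2 at 2 to 5 counts. Endothelial genes could not be compared, since 13 of 14 were under 3 counts in every library and 0 were tested. Their summed counts were 16 and 8.95 in control and 8.73 and 11.9 in cadmium testes. None of 14 fibroblast and matrix genes was tested either. Macrophage genes gave a median of -0.11 over 4. Among them H2-Ab1, a class II antigen-presenting chain, had 17 and 7 counts against 9 and 1 (-1.21 ± 0.84). It also had 73 to 333 counts in the shallower sperm libraries, so it is not particular to macrophages here. C1qb had 9 and 7 counts against 9 and 7, and Lyz2, lysozyme, 7 and 5 against 7 and 9. Lymphocyte genes gave the list median farthest from 0, at 0.74 over 3 genes. These were Ms4a1, a B cell antigen, at 12 and 4 counts against 15 and 10.0, Cd3d at 8 and 8 against 7 and 9, and Nkg7 at 3 and 0 against 6 and 0. Red blood cell and fat genes gave medians of 0.29 over 1 gene and 0.10 over 2, with Adipoq at 62 and 64 counts against 51 and 59.

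Metal handling came next, and the metallothioneins that sequester cadmium were close to the detection floor in every library. Mt1 had 2 and 3 counts in the controls and 2 and 0 in cadmium testes, and Mt2 had 2 and 2 against 0 and 3. No difference in either was detectable at this depth. Mtf1, the transcription factor that induces metallothioneins on metal exposure, was far better measured, at 24.4 and 43.2 FPKM in the controls and 28.4 and 48.1 in cadmium testes (0.24 ± 0.56), with library 2 higher in each group. Slc30a1, the zinc exporter that this factor controls, had 23 and 26 counts against 29 and 33 (0.38 ± 0.56). Slc39a8, a carrier through which cadmium enters testicular cells, had 9 and 13 counts against 7 and 13 (-0.08 ± 0.74). Slc30a7, a zinc carrier of the Golgi, had 254 and 359 counts against 244 and 333. Over the 10 tested of 27 genes the median log2 fold change was -0.17, and on the test's scale the groups overlapped in all 10.

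Antioxidant and glutathione genes gave a median of 0.27 over 13 tested of 34, again with the groups overlapping in all 13 on the test's scale. Hmox1, heme oxygenase, had 0 and 1 counts in the controls and 1 and 0 in cadmium testes, so no difference was detectable. Keap1, the sensor that restrains the antioxidant factor NRF2, had 100 and 117 counts against 130 and 161 (0.47 ± 0.50). Gpx4, the glutathione peroxidase that also builds the sperm midpiece, had 32 and 33 against 32 and 39. Sod1, the cytosolic superoxide dismutase, had 17 and 18 counts in control testes, 16 in cadmium 1 and 7 in cadmium 2 (-0.62 ± 0.65). Slc7a11, which imports cystine for glutathione synthesis, had 94.1 and 101 against 96.5 and 129.

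Chaperone genes differed far more between library numbers than between treatments. Their median log2 fold change was 0.11 over 21 tested of 28, while library 2 differed from library 1 by a median of 0.94 in control and 1.28 in cadmium testes. Hsp90aa1 was at 13.1 and 55.4 FPKM in the controls and 13.9 and 46.1 in cadmium testes (-0.15 ± 0.71). The inducible Hspa1a, whose reads may be split with its copy Hspa1b, had 82.3 and 89.1 counts against 103 and 81 (0.11 ± 0.48), and Hspa1b had at most 4.01 counts. Dnajb1, a heat-induced partner of HSP70, was the only member whose groups did not overlap on the test's scale, at 11 and 7 against 12 and 12. It makes up 4.76% of the tested members, with cadmium higher, beside 9.08% over known mRNA genes. Chaperones of the endoplasmic reticulum and the unfolded protein response gave a median of -0.10 over 8 tested of 19. Atf4, the translation-controlled factor of that response, had 20.0 and 13 counts in the controls and 29 and 24 in cadmium testes (0.75 ± 0.57), while its target Ddit3 had 20.0 and 16 against 13 and 11 (-0.53 ± 0.63). Canx, calnexin, was at 0 in both libraries numbered 1 and at 33.5 and 47.4 counts in control 2 and cadmium 2.

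Apoptosis and p53 target genes gave a median log2 fold change of 0.06 over 7 tested of 29, and 15 of the list were under 3 counts in every library. Mcl1, which protects cells from apoptosis, had 29 and 32 counts in the controls and 45 and 65 in cadmium testes (0.92 ± 0.55, unadjusted p = 0.112 in edgeR). Diablo, which antagonises the inhibitors of caspases, had 187 and 199 against 197 and 276 (0.36 ± 0.50). Cdkn1a, the p53 target that arrests the cell cycle, had at most 1 count and Bax was at 0 in all 4 libraries. DNA repair genes gave a median of -0.01 over 10 tested of 28, with Apex1, an endonuclease of base excision repair, at 22 and 18 counts against 31 and 28 (0.62 ± 0.55). Brca2, which loads the recombinase at breaks, was at 48 and 24 against 32 and 12 (-0.67 ± 0.56). Bcl2l1, of the apoptosis list, had 13.3 and 8 counts against 8 and 7 (-0.40 ± 0.71). On the test's scale the groups did not overlap in Mcl1 and Apex1, with cadmium higher, and in Bcl2l1 and Brca2, with cadmium lower. In each direction that is 14.3% of the tested apoptosis genes and 10% of the tested DNA repair genes. Over known mRNA genes the shares were 9.08% higher and 8.40% lower. Each of these changes was within 2 of its standard errors.

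**Figure D5:**
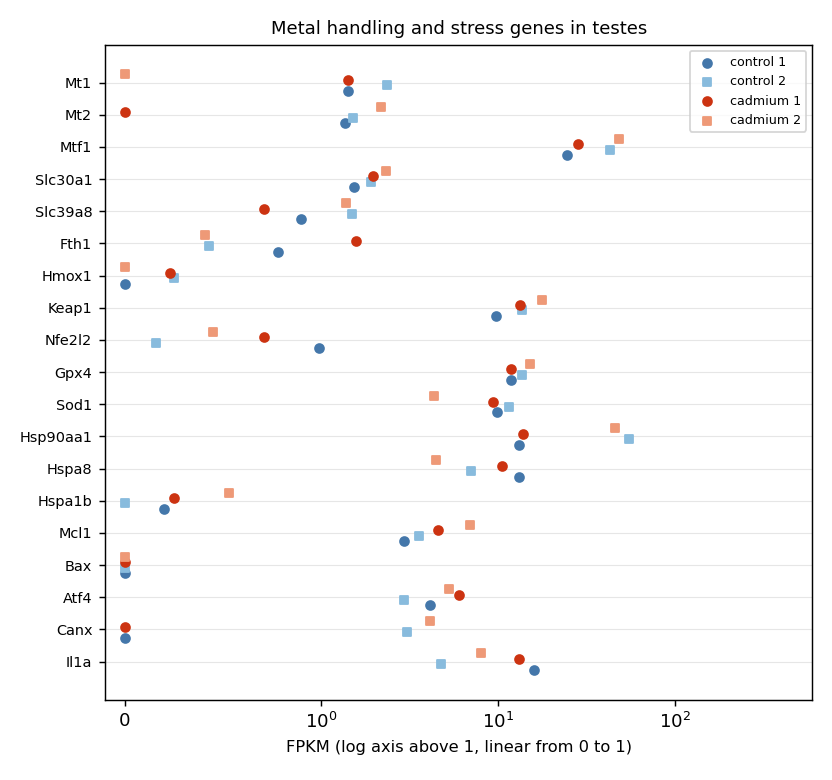
FPKM per library (horizontal axis, logarithmic above 1 and linear below) of metal handling, antioxidant, chaperone, apoptosis and inflammation genes. Mt1, Mt2 and Hmox1 lie at the lower end of the axis in all 4 libraries, and Hsp90aa1 separates library 1 (13.1 and 13.9) from library 2 (55.4 and 46.1) in both groups.

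Inflammation could be read from 4 of 26 genes, with a median log2 fold change of -0.09, and 20 of the 26 were under 3 counts in every library. Il1b had 19 and 8 counts in the controls and 11 and 6 in cadmium testes (-0.58 ± 0.69), Cxcl10 10.0 and 1 against 13 and 2, and Socs3, a feedback inhibitor of cytokine signalling, 39 and 23 against 37 and 12. All 3 were higher in library 1 of each group. Hypoxia and vessel growth genes gave a median of 0.28 over 6 tested of 18. Angpt2, which loosens vessels for remodelling, had 60.0 and 22 counts against 47 and 14 (-0.37 ± 0.58). Egln3, an oxygen-sensing prolyl hydroxylase, had 13 and 10.0 against 15 and 17 (0.55 ± 0.65), and Vegfb 2 and 3 against 5 and 5. Vegfa had at most 2 counts.

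Genes of energy and protein turnover gave list medians close to 0, while the log2 fold changes of single members ran from -1.61 to 2.11 and many were barely measured, with 30 of 76 respiratory chain genes and 10 of 38 proteasome genes under 3 counts in every library. Respiratory chain and ATP synthase genes gave a median log2 fold change of 0.05 over 36 tested of 76, with Ndufa13, a subunit of complex I, at 708 and 900 FPKM in the controls and 795 and 1032 in cadmium testes (0.25 ± 0.56). Glycolysis genes gave 0.06 over 17 of 22, with the enolase gene Eno1 at 279 and 463 FPKM against 317 and 461 (0.12 ± 0.57), and Gapdh at 56.3 and 33.2 against 52.4 and 40.7. In Eno1 and Gapdh the FPKM values, which lack the TMM scaling of the test, again go with the library number. Ribosomal protein genes gave 0.07 over 67 of 82, with the groups apart in 7 genes with cadmium higher (10.4%) and 6 with cadmium lower (8.96%). Their counts can be shared with processed pseudogenes. Rpl28, the most abundant, was at 93.2 and 113 FPKM against 84 and 95.5. Proteasome genes gave 0.01 over 18 of 38, with Psmc3, an ATPase of the cap, at 9 and 12 counts in the controls and 19 and 24 in cadmium testes (1.07 ± 0.66, unadjusted p = 0.121 in edgeR).

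Cell division genes gave a median of -0.07 over 9 tested of 24. Pcna, the sliding clamp of DNA replication, had 80.0 and 65 counts in the controls and 88 and 106 in cadmium testes (0.51 ± 0.49). Tyms, thymidylate synthase, had 435 and 176 counts against 326 and 163 (-0.24 ± 0.49), with library 1 higher in each group. Ccnb1, the cyclin of mitotic entry, had 7 and 7 against 11.6 and 9. On the test's scale it was the only gene of the list whose groups did not overlap (11.1% with cadmium higher, beside 9.08% over known mRNA genes).

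Long non-coding RNAs took most of the counts. The known lncRNA genes had a median log2 fold change of 0.01, with the groups apart in 9.18% with cadmium higher and 9.11% with cadmium lower. Predicted lncRNA genes had a median of 0.05, with the groups apart in 11.7% with cadmium higher and 9.93% lower. NONMMUG018329.2, the gene with the largest count in testes, had 53973 and 40018 counts in the controls and 70630 and 77988 in cadmium testes. Both cadmium values lay above both control values, its log2 fold change was 0.75 ± 0.75, and its adjusted p was 1.0 in edgeR. NONMMUG015766.2 had 30378 and 33644 counts against 33704 and 36269 (0.16 ± 0.70). Both were picked after the values were seen, as lncRNA genes of the highest level.

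Whether the cadmium difference of testes departs from that of sperm was tested as an interaction in edgeR over 9 libraries. The first control sperm library was left out, following the study's own choice. Of 32811 genes, 13 differed (0.0396%), of which 10 had the cadmium difference more positive in testes than in sperm. None of the 4 genes called in testes was among these 13. DESeq2 called 0 in the same comparison, with 574 genes at an unadjusted p under 0.05. NONMMUG018329.2 was one of the 13, with a difference of 2.13 on the log2 scale between the tissues and an adjusted p of 7.49e-05 in edgeR. In sperm it had 84158, 23869 and 45220 counts in the control libraries used and 46498 and 27450 in the cadmium libraries. As shares of a library these were 7.95%, 6.51% and 8.90% in control sperm and 4.02% and 2.19% in cadmium sperm, lower with cadmium, while the testes libraries gave 1.88% and 1.54% without and 2.48% and 2.88% with cadmium. The control sperm library left out of the fit was at 2.40%. The sperm libraries totalled 366455 to 1254477 counts and were less deep than those of testes.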

How the data were processed

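Ribosomal RNA was removed from the total RNA of testes by an RNase H step, and the libraries were sequenced on an Illumina HiSeq instrument. The authors removed adaptors and low-quality reads. The study's methods name SOAPaligner for the alignment, and the submitters' processing notes name HISAT and the build mm10. The tool that gave the estimated counts is not given in the sources used here. The authors deposited, for each library, an expected count per transcript that was not normalized, and 38.5 to 40.3% of these in testes were not whole numbers. The authors also deposited FPKM, scaled to transcript length and library size, which summed to between 693412 and 719644 per testes library. A transcript that a table did not list was taken as 0.

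Gene names written as dates by a spreadsheet, 24 genes and 39 transcripts in the cadmium tables alone, were restored, 32 from the control tables by transcript and 7 by number alone. Expected counts were summed by gene, rounded and passed to edgeR 4.0.16 (R 4.3.3, TMM normalization) for its quasi-likelihood test, over genes of at least 1 FPKM in at least 2 of the 4 libraries. TMM factors were 1.19 and 0.885 in control and 1.11 and 0.855 in cadmium testes. DESeq2 1.42.0 and limma 3.58.1 were alternatives. The groups were called apart where the normalized values of the 2 groups did not overlap. On simulated counts with the spread of these libraries, 6% of 200 genes changed by 4-fold were recovered and 100% of those changed by 16-fold. The changed genes were drawn from well-counted genes alone, and all genes shared the same dispersion. These shares therefore do not hold for genes of few counts. The members and gene lists were chosen with earlier results of these data known. The text names list members that were called, up to 3 of a list by highest mean FPKM and 3 by lowest p, a fixed set of marker and cadmium response genes, called genes, and genes said to be chosen after their values were seen. Some list members with values were likewise added for their role or their pattern after the values were seen. Gene positions are those of RefSeq's GRCm38.p6, the same build as mm10. Tables and figures were made with Python 3.11.15, pandas 2.3.3 and matplotlib 3.10.9.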

Additional observations from a re-analysis of the deposited data

Results flagged for a closer look

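The difference between the tissues was past the threshold of the interaction test in edgeR for 13 genes, given here as the cadmium difference in testes minus that in sperm on the log2 scale. It was 2.92 for LXLOC_042885, 5.09 for NONMMUG018330.2, 2.13 for NONMMUG018329.2, 2.66 for NONMMUG020675.2, 2.62 for NONMMUG020676.2 and 2.75 for NONMMUG020674.2. As shares of a sperm library, LXLOC_042885 took 5.52 to 6.65% in the 3 control libraries used and 1.31% and 1.89% in the cadmium libraries, and NONMMUG018329.2 took 6.51 to 8.90% against 4.02% and 2.19%. The control shares of NONMMUG020675.2 ran wider, from 0.334 to 3.08%, against 0.0703% and 0.206%. Those of NONMMUG018330.2 were 0.0029%, 0.0255% and 0.29% in control sperm 2, 3 and 4, against 0.00461% and 0.00198% in cadmium sperm. Its value thus leans on control sperm 4, and its log2 fold change in testes was 0.14. LXLOC_042885 had 932 and 1471 counts in the controls and 1161 and 3481 in cadmium testes. The next 4 rest on testes libraries of which 1 stood apart. The value was 15.21 for LXLOC_035163, with 76.7 counts in cadmium 1 and 0 in the other testes libraries, 7.72 for LXLOC_023944, with 67.1 counts in cadmium 1 alone, 13.74 for LXLOC_069410, with 43.6 counts in cadmium 1 alone, and 9.78 for LXLOC_027524, at 0 in cadmium 1 and at 114 to 187 counts in the other testes libraries. The differences with cadmium more negative in testes were -16.49 for LXLOC_075095, with 261 and 323 counts in cadmium sperm and 9.07 in control testes 2 alone, -13.13 for NONMMUG012432.2, with 25 and 23 counts in cadmium sperm and 9 and 4 in control testes, and -12.67 for Mapk8ip3, with 28 counts in control testes 2 and 12 in cadmium sperm 2 alone. Values of genes at 0 in a group depend on the prior count and are no bounds.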

How the results depend on the processing

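Cadmium against control in testes gave 4 called genes. The count was 4 with DESeq2, DESeq2 size factors and no minimum fold, 3 with filterByExpr and 6 with gene names as deposited, an alternative added after the data were seen. It was 0 with limma on log2(FPKM + 1) or log2(FPKM + 0.1), with library size alone, with transcripts and with known mRNA genes alone, and 73 (46 higher, 27 lower) with no filter on low values, the 4 genes included. Leave-one-out counts ran from 18 to 42, where the lone library of a group is assumed to vary like the other group. With the replicate number as a block the count was 72 of 26721 genes tested (43 higher, 29 lower, 16 known mRNA genes), the 4 genes included. It took in Eif4g3 (adjusted p = 1.5e-10), Pphln1 (2.37e-09), Ccl21b (4.44e-06), Tubb6 (9.46e-05), Gykl1 (0.000626), Defb19 (0.000636), Coro1c (0.0114) and Mark3 (0.0256, edgeR). The block fit also called genes whose groups overlap. Among them, Defb19 rests on cadmium 2 alone, and LXLOC_027524 had 187 and 114 counts in the controls and 0 and 170 in cadmium testes. The common dispersion was 0.0191 against 0.153. Deviations of same-numbered libraries correlated at 0.398, but with 2 pairs and no label the number is not shown to pair them. On simulated counts with the block's dispersion but no difference by number, fitted without a block, 98% of 200 genes changed by 4-fold were recovered. The changed genes averaged at least 20 counts per library, so this share does not measure the block fit. The interaction with sperm gave 13 genes, 12 with all 4 control sperm libraries, 0 with DESeq2 and 115 (58 higher, 57 lower) with the replicate block. Of the medians of 29 lists, 7 changed sign with library size alone, 5 with limma, 2 with the block and 6 to 16 when 1 library was left out. Leaving out 1 library moved the median log2 fold change of known mRNA genes from 0.02 to between -0.13 and 0.22. Counts under about 20 per library limit most coding genes.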
